A study of Mus musculus with 11 samples.

Results

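Endothelial cells line the blood vessels of the brain and, joined by tight junctions and stocked with transport proteins, form the blood-brain barrier. Their marker transcripts are found mainly in the vessel wall, although some are also made by other cells, and which cells gave the counts in these neuronal sorts was not tested. The marker genes described here are Cldn5, Pecam1, Cdh5, Slco1a4, Ly6c1, Abcb1a, Esam, Slc2a1, Egfl7 and Erg, chosen as a list of symbols and matched to the Ensembl identifiers of the count files. All 10 of the 10 genes were found among the 53465 genes of the files, and all 10 passed the filter on low counts that left 17093 genes for testing. A gene can pass that filter through a single group or a few deep libraries, so passing says little about its level in the rest.

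RNA was sequenced from medial prefrontal cortex (mPFC) CRF1+ neurons of adult male CRF1:GFP mice, a reporter line in which green fluorescent protein marks cells that express the corticotropin-releasing factor type 1 receptor. The mPFC of each mouse was dissociated with papain, enriched for neurons on a density gradient and sorted on GFP with nuclear and viability dyes, and 160 pg of RNA per mouse was made into a library. The groups were 6 naïve mice (labelled control), which breathed air, and 5 withdrawn mice (labelled ethanol), which had several weeks of chronic intermittent ethanol vapor and were then about a week into forced abstinence. Both groups carried the reporter and received the alcohol dehydrogenase inhibitor pyrazole, so neither the transgene nor pyrazole separates them. For 3 of the withdrawn mice (numbers 3, 4 and 5) a further label reads control, and the groups used here follow the title and treatment of each sample. The design description of the series gives 5 control and 6 ethanol mice instead, and which labels are right could not be settled. The comparison asked whether the sorted CRF1+ population differed in its transcripts between naïve and withdrawn mice, and for these genes how far their counts varied between libraries.

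Libraries held from 7351567 to 22244869 counts on genes, and 3 counts, the upper limit that a count of 0 allows, corresponded to between 0.140 and 0.362 CPM (counts scaled to a fixed library total). The share of tallied reads that fell outside annotated exons ranged from 5.77% to 31.5% in naïve mice and from 13.3% to 48.1% in withdrawn mice. The neuronal identity of the sort was visible in every library, with Snap25 at 3111 CPM or more and the sorted gene Crhr1 between 41.4 and 135 CPM. Levels below are CPM on library sizes normalized by the trimmed mean of M values (TMM), and log2 CPM adds a prior count of 2. Where a bulk library holds less of a cell type's transcript, fewer such cells and less RNA per cell cannot be told apart. The p-values measure the spread between mice, since each library came from a different animal.

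Compared per kilobase of exon, Ly6c1 was the most abundant member, with a mean over all 11 mice of 51.4 CPM per kb, followed by Slc2a1 at 30.4 and Cldn5 at 24.5 CPM per kb. Abcb1a (7.74), Egfl7 (7.43), Slco1a4 (7.09) and Esam (7.06) came next on the same scale, then Pecam1 at 3.98, Cdh5 at 1.38 and Erg at 0.240 CPM per kb. In each pair of neighbours in this order, the gap was smaller than the standard deviation over mice of the higher gene. The order of neighbours is thus not resolved by this measure, which leaves aside that the genes share libraries. Genes further apart in the order were not compared in this way. The coefficient of variation of CPM over the 11 mice ran from 24.4% for Egfl7 to 138% for Slco1a4. All 10 members had a count in 9 mice, 8 in withdrawn mouse 2 and 5 in naïve mouse 5. A count by itself does not bear out the endothelial label. Withdrawn mouse 3 had all 10 members with 1 count of Slco1a4 (0.0466 CPM), and withdrawn mouse 1 with Cldn5 at 1.00 CPM.

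Cldn5, the main claudin of brain endothelial tight junctions (ENSMUSG00000041378, GRCm38 chr16:18776847-18778262, plus strand), had 0 CPM in its lowest naïve mouse, a median of 30.4 and a highest value of 115 CPM. In withdrawn mice 1 to 5 it was at 1.00, 12.1, 6.25, 93.9 and 7.69 CPM. Naïve mice 1, 2 and 6 (82.2, 51.9 and 115 CPM) and withdrawn mouse 4 stood above the other mice, and the groups overlapped over their whole range. The log2 fold change, withdrawn minus naïve, was -0.84 with a standard error (SE) of 1.24 (edgeR quasi-likelihood test, adjusted p = 0.943).

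Esam, a junctional adhesion molecule of endothelium and platelets (ENSMUSG00000001946, chr9:37528078-37538319, plus strand), lay between 0.652 and 48.6 CPM in naïve mice, with a median of 24.6 CPM. The withdrawn values were 5.87, 0.553, 7.74, 57.2 and 6.70 CPM. The same naïve mice 1, 2 and 6 and withdrawn mouse 4 were the highest, at 38.2 CPM or more, and the log2 fold change was -0.62 (SE 0.99; edgeR adjusted p = 0.948).

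Cdh5, or VE-cadherin, the cadherin of endothelial adherens junctions (ENSMUSG00000031871, chr8:104101625-104144511, plus strand), was sparser. It ran from 0 to 7.37 CPM in naïve mice, with a median of 5.38 CPM, and was at 15.1, 0, 6.39, 14.6 and 1.98 CPM in withdrawn mice 1 to 5. Its highest values were thus in withdrawn mice 1 and 4, and it had no count in naïve mouse 5 or in withdrawn mouse 2, where 3 counts would be 0.203 and 0.332 CPM. The log2 fold change was 0.83 (SE 1.17; edgeR adjusted p = 0.937).

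Pecam1, or CD31, an adhesion molecule at contacts between endothelial cells (ENSMUSG00000020717, chr11:106654217-106750628, minus strand), was at 0.203 CPM in naïve mouse 5, with a naïve median of 15.4 and a highest value of 51.6 CPM. The withdrawn values were 11.7, 64.0, 16.2, 51.9 and 11.4 CPM. It was the member with its highest value in withdrawn mouse 2, a library that had no count for Cdh5 or Abcb1a, and its log2 fold change was 0.67 (SE 0.82; edgeR adjusted p = 0.924).

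Slco1a4, an organic anion transporter of brain capillaries (ENSMUSG00000030237, chr6:141805440-141856199, minus strand), split the mice most sharply. It was at 98.3, 110 and 140 CPM in naïve mice 1, 2 and 6 and at 143 CPM in withdrawn mouse 4, and these 4 mice held 98.2% of its CPM summed over mice. The other naïve mice had 1.49, 0.870 and 0 CPM, and the other withdrawn mice 1.15, 0.884, 0.0466 and 4.37 CPM. Each group therefore held both kinds of library, and the log2 fold change of -0.95 came with an SE of 1.65 (edgeR adjusted p = 0.951).

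Slc2a1, or GLUT1, the glucose transporter of the barrier, which glia also carry (ENSMUSG00000028645, chr4:119108711-119137983, plus strand), was present in every library. It lay between 41.1 and 256 CPM in naïve mice, with a median of 106 CPM, and at 22.6, 74.3, 37.9, 216 and 50.7 CPM in withdrawn mice. The 4 mice that were highest for Slco1a4 were also highest for Slc2a1, at 153 CPM or more, above a floor that the other mice shared. The log2 fold change was -0.67 (SE 0.62; edgeR adjusted p = 0.891).

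Ly6c1, a GPI-anchored surface protein of capillary endothelium and of some leukocytes (ENSMUSG00000079018, chr15:75044018-75048830, minus strand), ran from 2.98 to 238 CPM in naïve mice, with a median of 99.9 CPM. The withdrawn mice had 5.80, 51.9, 20.6, 168 and 18.7 CPM. Naïve mice 1, 2 and 6 and withdrawn mouse 4 were again highest, at 146 CPM or more, and the log2 fold change was -1.09 (SE 0.98; edgeR adjusted p = 0.887).

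Egfl7, a secreted factor of the vascular wall whose gene hosts miR-126 (ENSMUSG00000026921, chr2:26580014-26593120, plus strand), was the exception in spread. It lay between 17.6 and 37.4 CPM in naïve mice, with a median of 28.5 CPM, and at 19.2, 29.4, 26.8, 19.4 and 23.3 CPM in withdrawn mice. Naïve mouse 5, which had no Cldn5 or Slco1a4, had 26.6 CPM of Egfl7, and withdrawn mouse 4, with the most Slco1a4, had 19.4 CPM. The log2 fold change was -0.29 (SE 0.26; edgeR adjusted p = 0.884).

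Erg, an ETS transcription factor that maintains endothelial identity (ENSMUSG00000040732, chr16:95359169-95586593, minus strand), was barely detected, with 148 counts in all. It ran from 0 to 2.18 CPM in naïve mice, with a median of 1.05 CPM, and was at 0.358, 0.111, 1.63, 0.362 and 0.564 CPM in withdrawn mice. Several of these values lie near the level of 3 counts, and the log2 fold change was -0.72 (SE 1.01; edgeR adjusted p = 0.937).

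**Figure D1:**
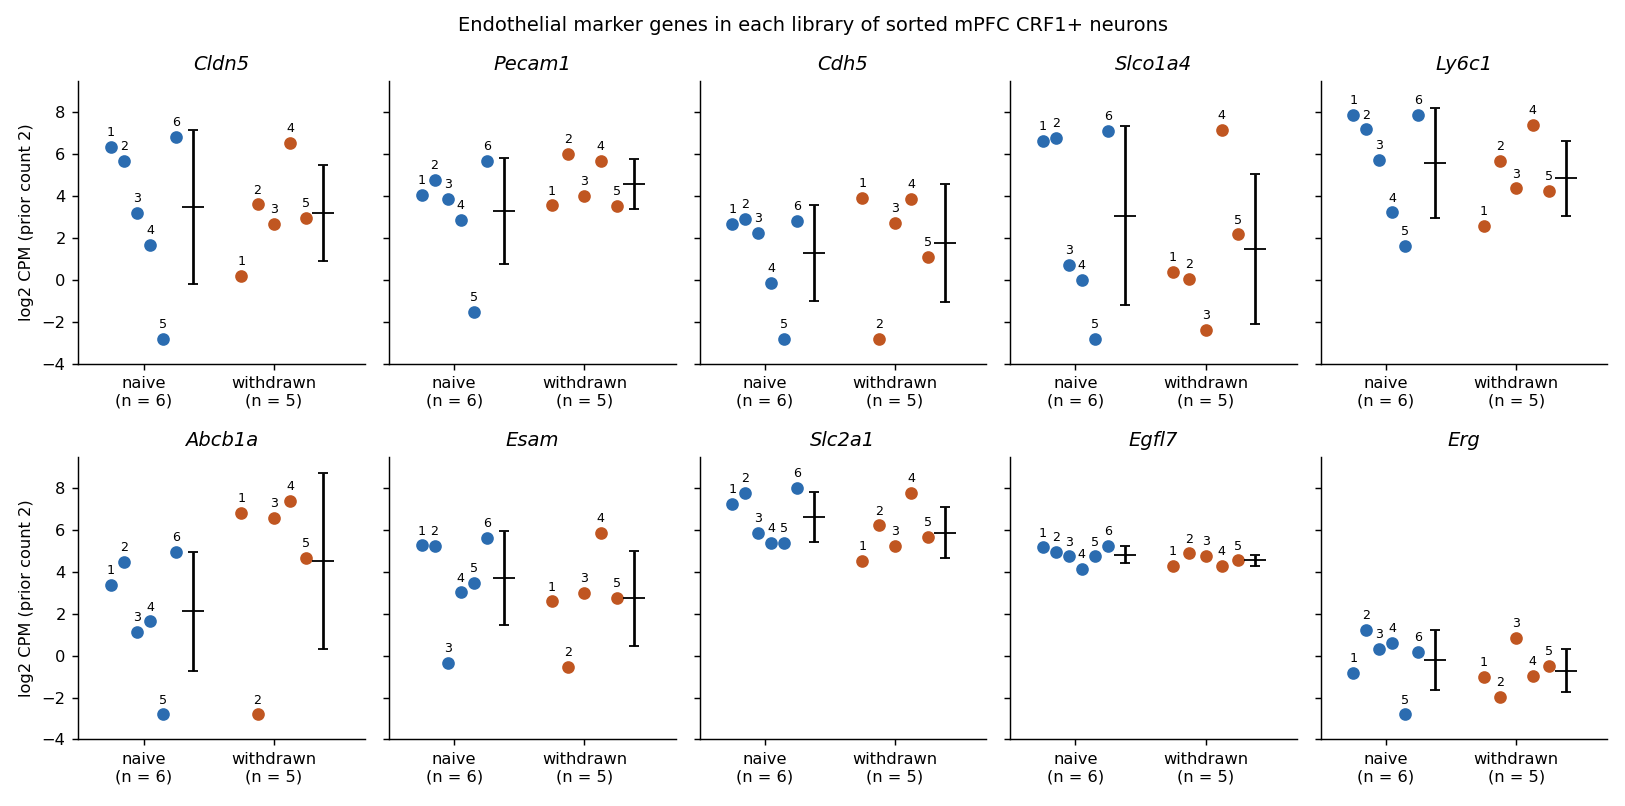
Level of each endothelial marker gene in each mouse, as log2 CPM with a prior count of 2 on the y axis and the group on the x axis (points, mice, numbered by replicate; line and bar, mean and SD). Slco1a4, Ly6c1 and Slc2a1 are highest in naïve mice 1, 2 and 6 and withdrawn mouse 4, Egfl7 is nearly level, and Abcb1a is above every naïve mouse in withdrawn mice 1, 3 and 4.

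Abcb1a, a gene for P-glycoprotein, the efflux pump that keeps many drugs out of the brain (ENSMUSG00000040584, chr5:8660077-8748575, plus strand), departed from the other transporters. It was at 10.2, 21.9, 2.05, 2.96, 0 and 30.9 CPM in naïve mice 1 to 6 and at 112, 0, 94.4, 167 and 25.5 CPM in withdrawn mice 1 to 5. Withdrawn mice 1, 3 and 4 stood above every naïve mouse, withdrawn mouse 5 lay within the naïve range, and withdrawn mouse 2 had no count, so that the groups overlapped. The log2 fold change was 2.82 (SE 1.19; edgeR p = 0.0334, adjusted p = 0.634), the largest of the 10, and the two-sided exact permutation test over the 462 ways of dividing the mice gave p = 0.292, where the smallest possible value was 0.00433. By DESeq2 it was 2.88 with an adjusted p of 0.50. In withdrawn mice 1 and 3, with 112 and 94.4 CPM of Abcb1a, Cldn5 was at 1.00 and 6.25 CPM and Slco1a4 at 1.15 and 0.0466 CPM.

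None of the 10 members passed the thresholds used for a call (adjusted p no greater than 0.05, and more than 0.6 in size on the log2 scale), by edgeR or by DESeq2, against 0.00585% of the 17093 genes tested by edgeR and 1.66% of the 21849 with a DESeq2 adjusted p. An unadjusted edgeR p under 0.05 was reached by 1 member, Abcb1a, higher in withdrawn mice, against 7.22% of tested genes in either direction and 5% in that direction. No member reached an unadjusted DESeq2 p under 0.05. The groups overlapped for all 10 members, while 0.983% of tested genes had groups that did not overlap. Fitted log2 fold changes were below 0 for 7 members and above 0 for 3 (Pecam1, Cdh5 and Abcb1a), against 48.2% below 0 among tested genes. The median over members was -0.64 and the mean -0.09, pulled apart by Abcb1a, while the median over all tested genes was 0.02. The 95% intervals were wide, from -4.20 to 2.29 for Slco1a4 and from -3.28 to 1.60 for Cldn5. The interval was narrowest for Egfl7 among the 10, from -0.80 to 0.22.

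**Figure D2:**
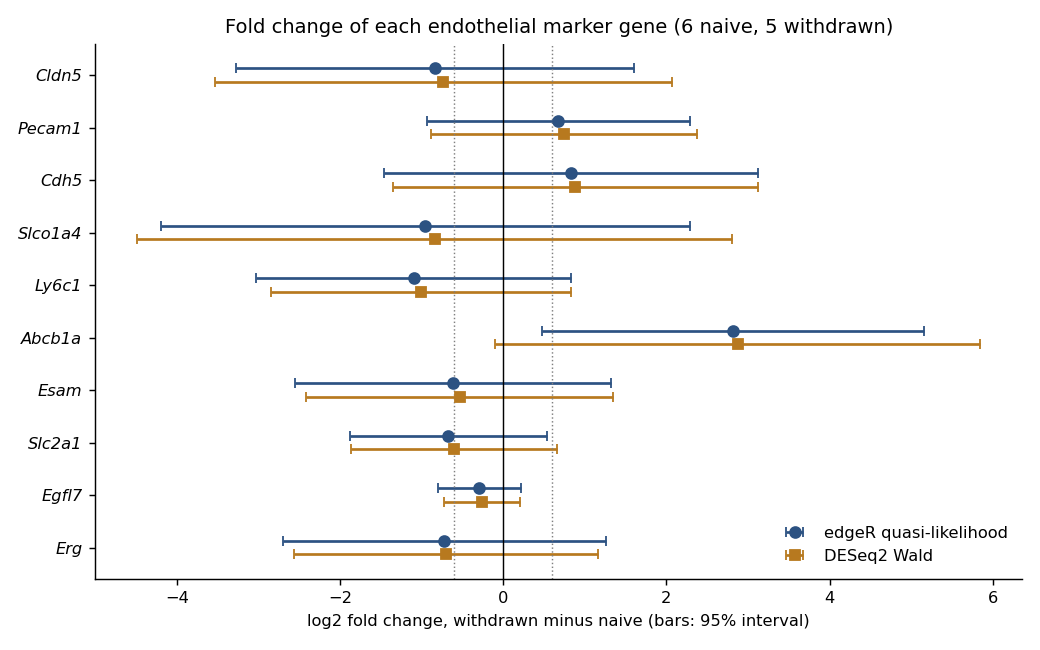
Fitted log2 fold change, withdrawn minus naïve, of each member on the x axis (circles, edgeR; squares, DESeq2; bars, normal 95% intervals from the standard error; dotted lines, the threshold of 0.6). The intervals of 9 members include 0 under both tools, and that of Abcb1a, from 0.48 to 5.15 by edgeR, includes 0 by DESeq2.

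Several fits depended on withdrawn mouse 4, which is among the mice whose further label reads control. Without that mouse the log2 fold change of Slco1a4 was -5.17 (edgeR adjusted p = 0.754), that of Cldn5 -2.67 (0.997) and that of Ly6c1 -2.22 (0.982), and the mean over the members was -1.13. Esam was then at -2.20, Slc2a1 at -1.46, Cdh5 at 0.44 and Pecam1 at 0.42. Without naïve mouse 6, Cldn5 was at -0.26, Slco1a4 at -0.48, Esam at -0.29, Slc2a1 at -0.35 and Pecam1 at 1.25. Cldn5 was at -0.54 without naïve mouse 1, and Pecam1 at 0.42 without naïve mouse 5. Cdh5 was at 0.40 without withdrawn mouse 1, and Erg at -1.52 without withdrawn mouse 3. Without all 3 mice with conflicting labels the corresponding values were -5.87 (edgeR adjusted p = 0.789), -2.83 (0.816) and -2.06 (0.821), with a mean of -1.36, on 2 withdrawn mice. Without withdrawn mouse 2, Pecam1 was at 0.21, Esam at -0.33 and Erg at -0.46, and Abcb1a was at 3.12 with an edgeR adjusted p of 0.233, its smallest over all alternatives.

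The spread between libraries was the main feature of these genes. The SD of log2 CPM over the 11 mice had a median of 2.20 over the members, against 0.694 over all tested genes and 0.517 over the 7803 tested genes with a mean of 10 to 100 CPM. In the lists read below, the median was 2.43 for pan-endothelial, 2.64 for pericyte, 2.72 for smooth muscle and 3.51 for fibroblast genes. It was 2.26 for astrocyte, 2.28 for blood, 1.95 for microglia, 1.89 for activation and 1.81 for barrier genes. Arterial and venous genes had 1.56, oligodendrocyte genes 1.33 and neuron genes 0.333. A wide spread was thus not particular to the members. For Slco1a4 the SD was 3.88, larger than for 99.9% of tested genes, for Abcb1a 3.57 (99.7%), for Cldn5 2.97 (99.0%) and for Cdh5 2.42 (96.8%). Ly6c1 (2.21), Esam (2.20) and Pecam1 (2.06) exceeded between 91.2% and 94.3% of tested genes. Erg (1.23) and Slc2a1 (1.21) exceeded 65.8% and 65.5%, and Egfl7 (0.36) only 16.6%. The spread was within groups, with an SD for Slco1a4 of 4.30 among naïve and 3.58 among withdrawn mice, and for Cldn5 of 3.67 and 2.28. Sums of CPM over the members ran from 81.9 in naïve mouse 5 to 932 in withdrawn mouse 4. Naïve mouse 5, the lowest or tied lowest for 7 members, also had the lowest number of detected genes, 15585, and the lowest share of reads outside exons, and the part of either in its values was not tested.

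The members moved together in part. Pearson's r of log2 CPM over the 11 mice was above 0 in 43 of 45 pairs, with a median of 0.46 (Spearman's rho, 0.39) and a range from -0.20 to 0.97, against a median of 0.08 between a member and the 17083 other tested genes. On deviations from the group means the median was 0.49, and in the 6 naïve mice by themselves it was 0.76. All pairs share libraries and their depth, and the values of Slco1a4 fall in separate clusters, so no pooled r is given for its pairs. Its exclusion left a median of 0.45 over 36 pairs, an alternative chosen after seeing the data. Of these 36, 6 pairs had an adjusted p of at most 0.05 by Pearson's r and by Spearman's rho (permutation tests, two-sided, 100000 resamples, adjusted over 45 pairs). Some members also followed the mean log2 CPM of other lists read below. For the pan-endothelial, pericyte and astrocyte means in turn, Cldn5 had r = 0.96, 0.76 and 0.63. Ly6c1 had 0.94, 0.68 and 0.48, Cdh5 0.60, 0.78 and 0.88, and Abcb1a 0.46, 0.75 and 0.94. Egfl7 had 0.35, 0.05 and -0.18. Moving together was thus not particular to endothelial genes.

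The closest pair was Cldn5 and Ly6c1, with r = 0.97 (permutation test, adjusted p = 0.00045) and rho = 0.97 (0.00135), and r was 0.97 without the 2 mice farthest from the Cldn5 median. The 2 mice left out differ between the pairs below. Ly6c1 and Slc2a1 followed Cldn5 and each other, with r = 0.91 for Ly6c1 with Slc2a1 (permutation adjusted p = 0.00378; rho = 0.88, adjusted p = 0.00900) and 0.86 for Cldn5 with Slc2a1 (permutation adjusted p = 0.00378; rho = 0.93, adjusted p = 0.00157). Without the 2 mice farthest from the Ly6c1 median the former was 0.93, and without those farthest from the Cldn5 median the latter was 0.97. Pecam1 joined them with r = 0.84 to Cldn5 (permutation adjusted p = 0.00830; rho = 0.83, adjusted p = 0.0209) and 0.76 to Ly6c1 (0.00830; rho = 0.77, adjusted p = 0.0369), which were 0.59 without the 2 mice farthest from the Cldn5 median and 0.80 without the 2 farthest from the Pecam1 median. Cdh5 and Abcb1a made the remaining pair, with r = 0.92 (permutation adjusted p = 0.00378; rho = 0.86, adjusted p = 0.0111), and 0.70 without the 2 mice that had no Cdh5. Esam, Egfl7 and Erg were in none of the 6 pairs.

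**Figure D3:**
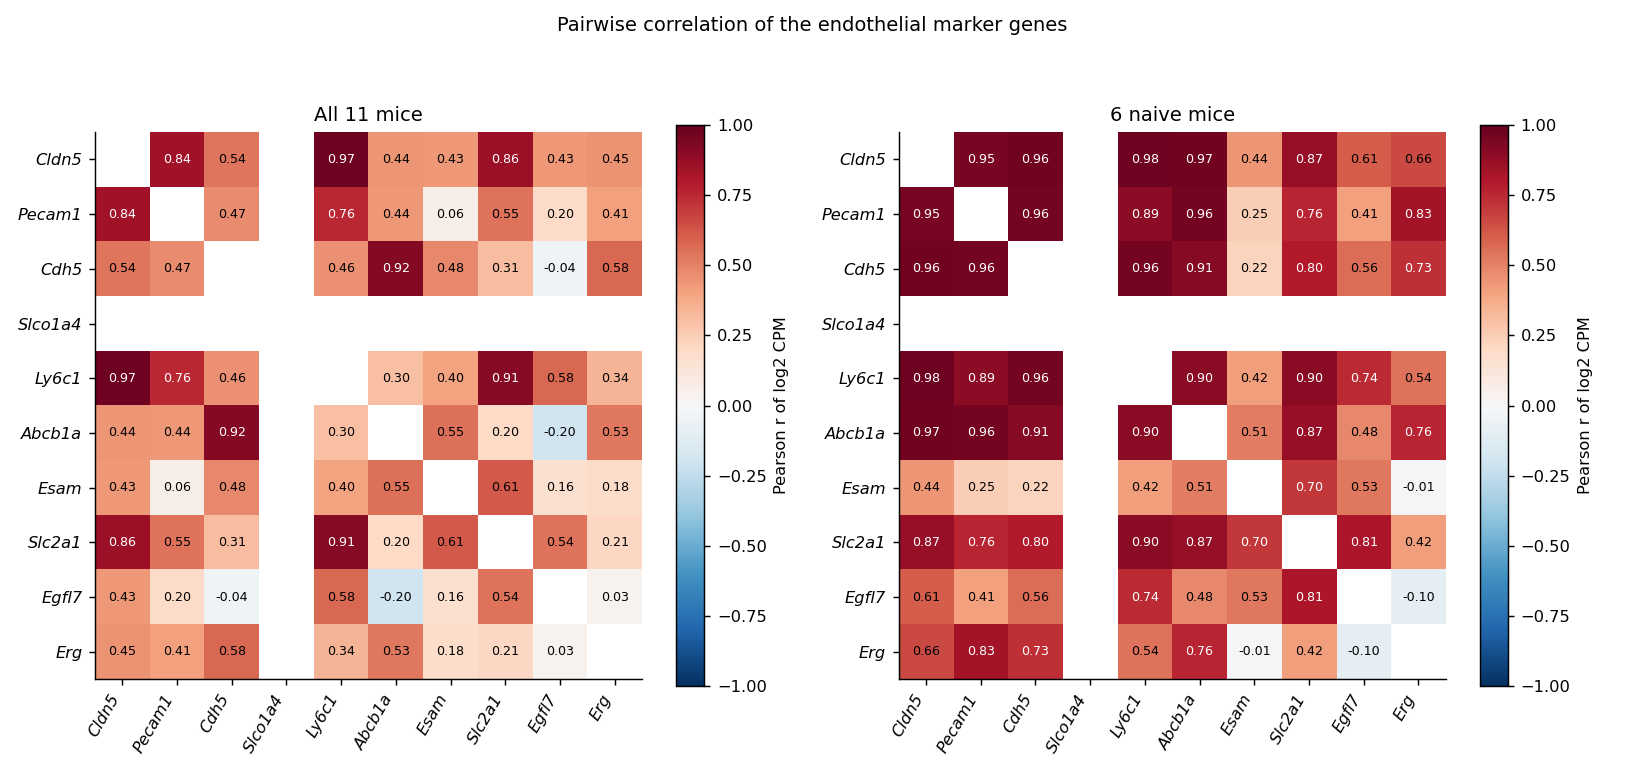
Pearson's r of log2 CPM for each pair of members, over all 11 mice (left) and over the 6 naïve mice (right), on a scale from -1 (blue) to 1 (red). Abcb1a has r = 0.97 with Cldn5 in naïve mice and 0.44 over all mice, while Cldn5 and Ly6c1 have 0.98 and 0.97, and Slco1a4 is left blank because its values fall in separate clusters.

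The start regions of Cldn5 and Ly6c1, the closest pair, are shown beside that of Egfl7, the member with the smallest spread. Each is the 250 bases before the RefSeq start site (GRCm38.p6), 5′ to 3′ on the strand of the gene, with matches to 4 short motifs in capitals. The motifs were CAGGAAG and CCGGAAG, bound by ETS factors such as Erg, TGTTTAC, bound by forkhead factors, and CTTTGAT, bound by the LEF/TCF factors of the Wnt pathway that builds the barrier, each on either strand. Cldn5 lies at chr16:18776597-18776846 (plus strand), Ly6c1 at chr15:75048838-75049087 (minus strand) and Egfl7 at chr2:26580833-26581082 (plus strand).
Cldn5: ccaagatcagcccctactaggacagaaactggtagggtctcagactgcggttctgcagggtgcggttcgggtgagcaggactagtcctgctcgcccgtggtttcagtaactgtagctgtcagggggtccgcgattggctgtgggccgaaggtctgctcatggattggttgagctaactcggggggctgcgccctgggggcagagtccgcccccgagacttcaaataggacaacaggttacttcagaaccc
Ly6c1: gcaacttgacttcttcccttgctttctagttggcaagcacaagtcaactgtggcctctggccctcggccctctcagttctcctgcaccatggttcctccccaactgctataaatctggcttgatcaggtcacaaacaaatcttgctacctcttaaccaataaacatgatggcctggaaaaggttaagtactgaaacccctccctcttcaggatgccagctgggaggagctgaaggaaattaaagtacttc
Egfl7: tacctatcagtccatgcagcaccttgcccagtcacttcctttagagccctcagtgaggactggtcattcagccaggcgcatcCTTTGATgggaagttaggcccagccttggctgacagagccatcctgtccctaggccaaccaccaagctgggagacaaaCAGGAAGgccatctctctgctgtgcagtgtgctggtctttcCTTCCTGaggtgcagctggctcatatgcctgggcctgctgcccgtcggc
The Egfl7 window held CAGGAAG, on either strand, at 2 places and CTTTGAT at 1, and the other windows held none of the 4. That Egfl7 window lies inside the gene bounds given above, so it precedes an internal start site and not the first annotated base. Of the 10 members 7 had such a window in the RefSeq table, and Pecam1, Cdh5 and Esam had no entry. Among the 7, CAGGAAG and CTTTGAT were found for Egfl7 and TGTTTAC for Abcb1a, whose RefSeq start site lies outside the gene bounds given above. Over 32851 promoter windows of this length, 10.8% held CAGGAAG, 6.91% CCGGAAG, 3.17% TGTTTAC and 3.21% CTTTGAT. A match is a run of letters and not a measured site, and its absence covers this window only.

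Some members share sequence with near copies, and reads from the shared stretches cannot be assigned to a gene by sequence. Of the distinct 75-base words (the read length) in the annotated transcripts of Ly6c1, 19% also occur in other genes, mostly Ly6c2, and for Abcb1a it is 17.1%, mostly in Abcb1b and in Gm42686, an antisense gene with 553 exonic bases opposite Abcb1a. The setting of the counting for strand is not given in the sources used here, so reads of Abcb1a and Gm42686 cannot be told apart from the counts. The share was 2.93% for Egfl7, 1.03% for Slco1a4, 0.834% for Slc2a1 and 0.455% for Pecam1, and 0 for Cldn5, Cdh5, Esam and Erg. The coding sequences of Ly6c1 and Ly6c2 align over 393 bases with 97.7% identity, and those of Abcb1a and Abcb1b over 3819 bases with 88.0% identity. The stretches of 75 bases in which each pair differs most are shown because only reads over such differences assign a count to a member, with differing bases in capitals, 5′ to 3′ in coding direction (GENCODE M21 transcripts, GRCm38).
Ly6c1: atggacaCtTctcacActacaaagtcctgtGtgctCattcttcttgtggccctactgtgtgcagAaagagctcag
Ly6c2: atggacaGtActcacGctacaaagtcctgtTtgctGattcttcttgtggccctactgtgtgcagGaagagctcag
Abcb1a: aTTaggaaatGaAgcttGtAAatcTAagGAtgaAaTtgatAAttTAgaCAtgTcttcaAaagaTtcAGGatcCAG
Abcb1b: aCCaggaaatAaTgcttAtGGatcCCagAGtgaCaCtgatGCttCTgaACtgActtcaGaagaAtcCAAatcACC
Ly6c2 was nearly absent, at no more than 0.491 CPM in any mouse, beside 2.98 to 238 CPM of Ly6c1. Ly6a, the neighbouring gene for Sca-1, which is also a vascular marker, was at 181, 91.4 and 145 CPM in naïve mice 1, 2 and 6 and 115 CPM in withdrawn mouse 4, and at most 18.7 CPM in the other mice. Abcb1b, the other mouse gene for P-glycoprotein, was at 6.16, 15.6, 6.81, 7.97 and 1.41 CPM in withdrawn mice 1 to 5 and at no more than 5.49 CPM in naïve mice. It was highest in withdrawn mouse 2, where Abcb1a had no count. Of the 10 near copies listed, 5 were tested, 1 fitted higher and 4 lower, and none was called or reached an unadjusted p of 0.05 by edgeR, with Abcb1b (1.69, SE 0.91) and Egfl8 (-1.11, SE 1.70) at the extremes.

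Abcb1a was compared with the genes whose log2 CPM followed it, which were picked after its values were seen. The closest over the 11 mice were Clic1 (r = 0.99), Hspb8 (0.98), Fcgrt (0.98), Sult1a1 (0.98) and Ahnak (0.98), and none of the 10 closest was on an endothelial or other marker list here. The mean log2 CPM of the whole barrier list had r = 0.64 with Abcb1a and 0.84 with Ly6c1. Some of its genes, picked because they followed Abcb1a, had the opposite order. Slc16a1, a monocarboxylate transporter, had r = 0.96 with Abcb1a against 0.31 with Ly6c1. Abcg2, the other large efflux pump of the barrier, had 0.90 against 0.20, Itm2a 0.88 against 0.27, and Lsr, of the tricellular junctions, 0.88 against 0.40. Abcg2 was at 62.4, 56.1, 24.9, 23.7, 13.5 and 56.1 CPM in naïve mice 1 to 6 and at 248, 26.5, 136, 206 and 72.2 CPM in withdrawn mice 1 to 5, so that withdrawn mouse 2 was the only withdrawn mouse within the naïve range. Genes of other cell types moved with Abcb1a as well, with r = 0.89 for Gja1 and 0.84 for Gjb6, the connexins of astrocytes that other cells also make, 0.81 for Ogn and 0.69 for Col1a2, which fibroblasts make. These r are descriptions over 11 mice that share libraries, given without a test.

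**Figure D4:**
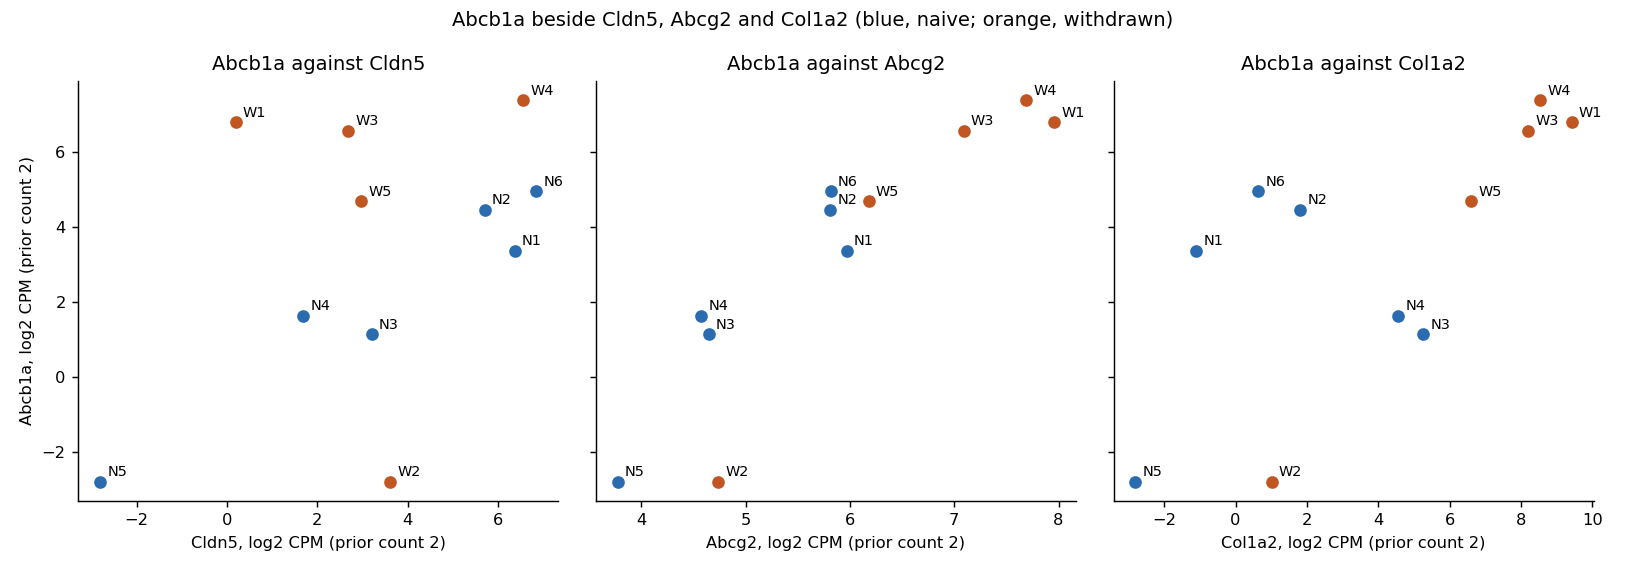
Log2 CPM of Abcb1a on the y axis against Cldn5, Abcg2 and Col1a2 on the x axes (prior count 2; blue N, naïve; orange W, withdrawn; 1 point per mouse). Withdrawn mice 1 and 3 lie high for Abcb1a, Abcg2 and Col1a2 and low for Cldn5, and withdrawn mouse 2 has no count of Abcb1a.

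The genes outside the members whose log2 CPM was most like the mean of the members over the 11 mice were Epas1 (r = 0.96), Pltp (0.95), Ushbp1 (0.94), Adgrf5 (0.94), Lims2 (0.94), Ptar1 (0.94), Prss35 (0.94), Tanc1 (0.94), Sgms1 (0.94) and Degs2 (0.93). Epas1 is the hypoxia-inducible factor HIF-2 alpha, and Adgrf5 is an adhesion G protein-coupled receptor of endothelium. Their fitted log2 fold changes were all below 0, from -0.20 for Epas1 to -1.37 for Pltp, and none passed the thresholds (edgeR, lowest adjusted p = 0.910).

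Other endothelial genes were read in 4 lists of 64 genes, of which 57 were tested. Fitted values were higher in withdrawn mice for 21 and lower for 36, with a median of -0.21, and edgeR called 0. An unadjusted edgeR p under 0.05 was reached by 6, all higher, against 5% of all tested genes in that direction. DESeq2 called 3, Abcg2, Alpl and Angpt2, all higher, against the 1.66% given above. In the pan-endothelial list (Flt1, Kdr, Tek and the like) 3 of 20 tested genes fitted higher and 17 lower, with a median of -0.53, from Robo4 (0.71, SE 1.49) to Ecscr (-2.49, SE 1.38), and none reached an unadjusted p of 0.05 by edgeR or DESeq2. Flt1, a receptor for vascular endothelial growth factor, was at 58.9, 108 and 194 CPM in naïve mice 1, 2 and 6, at 110 CPM in withdrawn mouse 4, and at most 16.3 CPM in the other mice. The barrier list had 8 higher and 13 lower of 21 tested, with a median of -0.21, from Lsr (1.89, SE 0.82, edgeR adjusted p = 0.648) to Slco1c1 (-1.68, SE 1.49).

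Alpl, tissue-nonspecific alkaline phosphatase, which capillaries and fibroblasts both make, had the largest value of the arterial and venous list, where 6 of 11 tested genes fitted higher and 5 lower (median 0.12). It was at 10.1, 8.13, 29.6, 19.8, 0 and 22.2 CPM in naïve mice and at 973, 11.6, 328, 486 and 167 CPM in withdrawn mice. Its log2 fold change was 4.72 (SE 1.01; edgeR adjusted p = 0.121). The smallest value of that list was Slc38a5 (-0.88, SE 1.70). In the activation list 4 of 5 tested genes fitted higher and 1 lower (median 0.97), from Angpt2, the destabilizing ligand of the Tie2 receptor, at 3.15 (SE 0.83; edgeR adjusted p = 0.236), to Plvap at -0.33 (SE 0.37). Abcg2 had a log2 fold change of 1.81 (SE 0.51; edgeR adjusted p = 0.282).

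Marker lists of other cell types were read beside these values, and edgeR called none of their genes. An unadjusted edgeR p under 0.05 was reached by 6 of 6 tested fibroblast, 2 of 9 pericyte and 2 of 7 astrocyte genes. It was also reached by 1 of 2 smooth muscle, 1 of 3 microglia and 1 of 6 oligodendrocyte genes. All of these were higher, against 5% of all tested genes in that direction. The filter on low counts left 6 of 10 listed fibroblast, 2 of 6 smooth muscle and 3 of 8 microglia genes. A gene can pass it through the group where it is high, so such counts are partly set by the filter. In the neuron list 1 of 8 was lower, against 380 of all 17093 tested genes in that direction and 7.22% in either direction. Summed CPM of the pericyte list ran from 0.0676 to 203 in naïve and from 12.8 to 217 in withdrawn mice, highest in naïve mouse 6 and withdrawn mouse 4, with 4 of 9 tested genes fitted higher and 5 lower, from Anpep (4.54, SE 1.14) to Ndufa4l2 (-1.81, SE 1.51). Rgs5, a defining pericyte gene, was at 31.3 CPM or more in naïve mice 1, 2 and 6 and withdrawn mouse 4 and at 5.01 CPM or less elsewhere. The blood list summed to between 0 and 50.5 CPM in naïve mice and to 221 CPM in withdrawn mouse 4, with no more than 10.4 CPM in the other withdrawn mice, and its 5 tested genes all fitted higher, from Hbb-bs (1.88, SE 1.86) to Cd3e (0.23, SE 1.26). The fibroblast list summed to 0.0676 to 72.7 CPM in naïve mice and to 1312, 14.0, 672, 923 and 225 CPM in withdrawn mice 1 to 5, so that withdrawn mouse 2, with no Abcb1a, was lowest there too. Its 6 tested genes all fitted higher, from Ogn (5.36, SE 1.24) to Dcn (3.20, SE 0.89). The other 4 listed genes were too sparse to be tested. Mean CPM in naïve and withdrawn mice was 1.36 and 0.897 for Lum and 0.466 and 0.0907 for Igf2. It was 0.145 and 0.490 for Dpt and 0.456 and 1.47 for Aldh1a2. DESeq2 called 3 of the list (Col1a1, Dcn and Ogn), against 1.66% of all genes with a DESeq2 adjusted p. Col1a1 and Col1a2 had no count in naïve mouse 5. The part of these cell types in the values of the members was not tested.

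The astrocyte list summed to between 14.5 and 202 CPM in naïve mice and to 697, 23.7, 439, 719 and 244 CPM in withdrawn mice. In it 4 of 7 tested genes fitted higher and 3 lower, from Gjb6 (4.36, SE 1.05) to Aqp4 (-1.02, SE 1.60). The connexins Gja1 and Gjb6 held most of the withdrawn sum, so its rise was not shared across the list. Their means were 15.2 and 8.97 CPM in naïve mice and 185 and 185 CPM in withdrawn mice, where the list sum averaged 425 CPM. Aqp4, the water channel that defines astrocyte endfeet, was at 10.6 CPM or less in every mouse. The smooth muscle list had both of its tested genes fitted higher, Myl9 (2.52, SE 0.98) and Myh11 (0.62, SE 1.50), and Acta2 was at 35.7 CPM in withdrawn mouse 4 and at 0.141 CPM or less in the other withdrawn mice. The microglia list had 2 of 3 tested genes higher, from Tmem119 (3.75, SE 1.47) to Csf1r (-0.26, SE 1.59), the oligodendrocyte list 2 of 6, from Cldn11 (5.09, SE 1.39) to Mbp (-0.37, SE 0.27), and the neuron list 0 of 8, from Crhr1 (-0.05, SE 0.26) to Snap25 (-0.41, SE 0.17). DESeq2 called Anpep, Gjb6 and Cldn11, 1 each of the pericyte, astrocyte and oligodendrocyte lists, all higher, against 1.66% of all genes with a DESeq2 adjusted p. Neuron markers summed to 6673 CPM in withdrawn mouse 4, the lowest of all mice, against 9556 to 13277 CPM in the others.

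**Figure D5:**
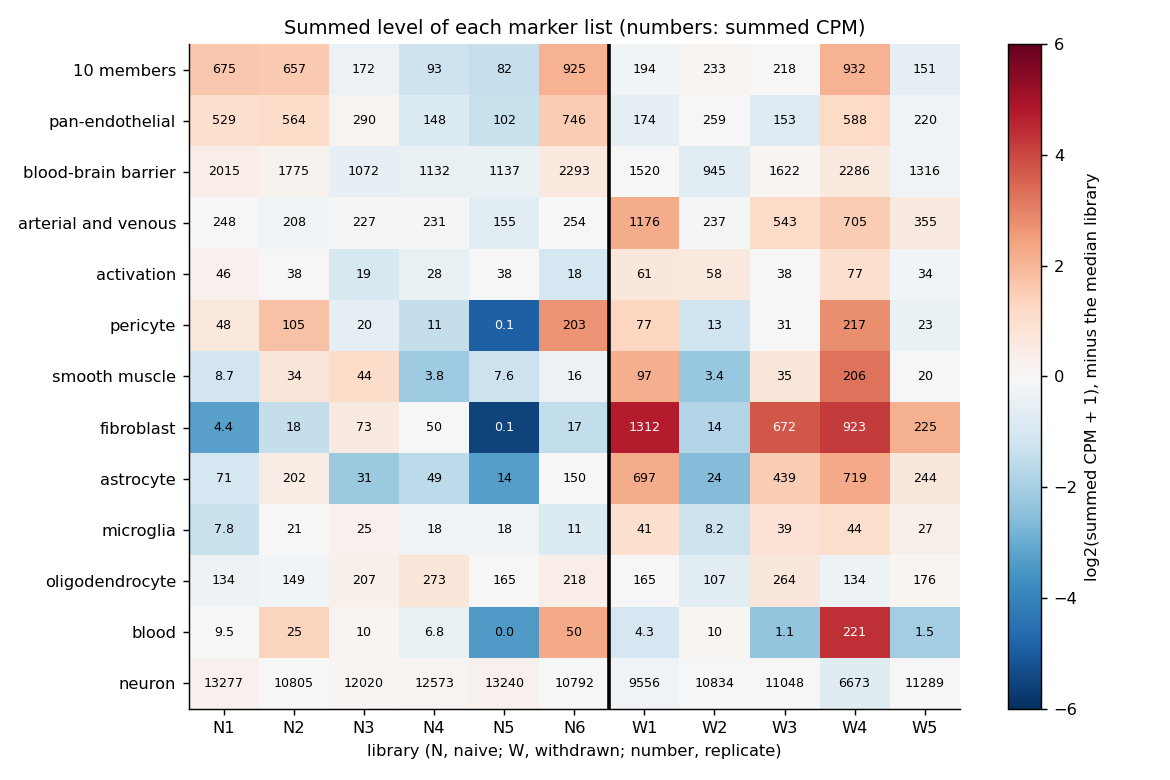
Summed CPM of each marker list (rows) in each library (columns), with the values printed and colour giving log2(summed CPM + 1) minus the median library. The 10 members and the pan-endothelial list are high in naïve mice 1, 2 and 6 and withdrawn mouse 4. The pericyte list is highest in naïve mice 2 and 6 and withdrawn mouse 4, while the fibroblast and astrocyte lists are high in withdrawn mice 1, 3, 4 and 5. Most of the astrocyte sum in withdrawn mice comes from Gja1 and Gjb6, with means of 185 and 185 CPM.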

How the data were processed

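RNA was sequenced from sorted mPFC CRF1+ neurons of 6 naïve and 5 withdrawn mice. The authors processed single reads of 75 nt with cutadapt 1.18 for trimming, STAR 2.5.2a for alignment against GRCm38 and HTSeq 0.11.0 for counting on the genes of Ensembl release 91, and the deposited values are raw counts per gene and mouse. The authors used DESeq2 1.20.0. Rows of reads on no gene were left out of library sizes. Since reads were amplified from 160 pg of RNA, the floors of 3 counts cover counting error only, while the intervals of fold changes carry the spread between mice.

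Symbols and coordinates came from GENCODE M21 (53274 of 53465 identifiers matched), promoters from RefSeq (GRCm38.p6). The group comparison used edgeR 4.0.16 under R 4.3.3 (TMM, filterByExpr with a minimum count of 10 and a total of 15, quasi-likelihood test, Benjamini-Hochberg adjustment over all tested genes). The standard error was the log2 fold change divided by the square root of F. DESeq2 1.42.0 and limma 3.58.1 (voom with quality weights) were alternatives, beside other scalings and filters, a replicate block and each mouse left out. Permutation tests of correlations used numpy 2.4.6 and 100000 resamples. Tests were checked on simulated data.

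The 14 lists, the members among them, were chosen with earlier results of these data known, and the lists are read as counts and medians. Named were the members, the largest and smallest fitted value and any called gene of each list, and the 10 genes most like the mean of the members. Genes most like Abcb1a, Flt1, Ly6a, Rgs5, Aqp4, Acta2, Slc16a1, Itm2a and Gja1 were named after their values were seen. No pair of libraries looked like a duplicate, with a chi-square per degree of freedom of 29.3 or more within groups and 33.5 or more across groups.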

Additional observations from a re-analysis of the deposited data

Results flagged for a closer look

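Abcb1a in withdrawn mouse 2 lay far below the other withdrawn mice, at -2.80 on the log2 CPM scale with no count, against 25.5 to 167 CPM in withdrawn mice 1, 3, 4 and 5. The gap to the nearest of the other withdrawn mice was 0.734 of the range of that group, above the critical value of 0.71 for 5 samples. Each member was examined in each group, 22 sets with the mean of the members included, of which chance would mark about 1.1, and 1 was marked. The same library had no count of Cdh5 and the highest Pecam1, at 64.0 CPM.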

How the results depend on the processing

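No member passed the thresholds under any of the 20 alternatives. The count over all genes, 1 by edgeR, was 362 by DESeq2, 137 with no filter on low counts, 30 with at least 10 counts in every mouse, 0 with the replicate block, 0 without the 3 mice with conflicting labels, and between 0 and 193 with each mouse left out, highest without withdrawn mouse 2. For other endothelial genes, 0 by edgeR, it was 3 by DESeq2, 1 with no filter, and between 0 and 2 with each mouse left out (Abcg2 and Alpl without withdrawn mouse 2). Of 189 fitted values of members under alternatives, 2 changed sign: Pecam1 was at -0.0080 by voom, and Cldn5 at 0.15 with the replicate block. The split of 7 members lower and 3 higher held under the other scalings and was 8 and 2 by voom and 6 and 4 with the block. The mean over members, -0.09, lay between -1.36 (without the 3 mice) and 0.38 (without naïve mouse 6), and above 0 in 8 of 20 alternatives, so it has no settled sign. The median correlation of 0.46 lay between 0.41 and 0.55 over 17 alternatives. With at least 10 counts in every mouse only 3 members could be fitted. Same-numbered mice are different animals and deviated together with r from -0.20 to 0.18, so the pairing is by number alone, and only 1 of 5 numbers was its own best match. Depth limits Erg most, with 148 counts in all.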
